A study of Danio rerio with 6 samples.

Results

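The TGF-beta and activin genes described here are 13 gene IDs of 14211 in the table, found by name from 10 symbols: the ligands tgfb1a, tgfb1b, tgfb2, tgfb3 and inhbaa, the receptors tgfbr1a and tgfbr2b, the transcription factor smad3a, the inhibitor smad7 and the matrix gene tgfbi. Names were matched ignoring case and with or without the paralog letter. The symbols INHBA, SMAD3 and TGFBR2 each stand for 2 IDs, so paralogs were not told apart there and the ID is given. TGFBR1, matched without the paralog letter, stands for 1 ID, and which paralog it is was not known. The genes were chosen by name and not by a threshold on these values, but with earlier results of these data known. Both groups are adult AB zebrafish with a cryoinjured heart, in which a patch of muscle was killed by local freezing. Fish were injected into the peritoneum with RO, a gamma secretase inhibitor, or with its carrier DMSO, at 24 h and 48 h after injury, and the ventricle apex was taken at 72 h. Each group has 3 libraries, and each library is a pool of 3 hearts, so the spread given is between pools and not between fish. Labels number the pools 1, 2 and 3 for DMSO, but 2, 3 and 4 for RO. No uninjured heart is among the samples, so all values are levels in injured tissue.

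TGF-beta ligands are secreted in a latent form and, once released, bind a type II receptor that recruits and activates a type I receptor. Activins, dimers of inhibin beta chains, use related receptors, and both branches phosphorylate Smad2 and Smad3, which enter the nucleus with Smad4. Smad7 is induced by the pathway and acts back on the type I receptor. In the injured zebrafish heart the pathway is known for scar formation and for cardiomyocyte proliferation. Gamma secretase cleaves Notch receptors, and the comparison asks how these genes differ between injured apices with and without its inhibitor.

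None of the 13 IDs passed an adjusted p of 0.05 in limma (moderated test on log2 values, Benjamini-Hochberg adjustment over all genes), where 1.03% of all genes passed. None passed in edgeR or DESeq2 either, though DESeq2 gave no adjusted p for 4 of them. At an unadjusted p below 0.05 limma gave 2 IDs, TGFB3 and TGFBI, or 15.4% of the 13, beside 13.4% of all genes. The same count was 3 in edgeR and 2 in DESeq2, for which no share over all genes is given here, so these counts have no background beside them. The groups did not overlap in 3 IDs, tgfb1b, TGFB3 and TGFBI, all higher in RO. That is 23.1% of the 13, beside 9.32% of all genes for RO higher and 18.7% in either direction; for RO lower it was 0 of the 13, beside 9.35%. The median log2 difference of the 13 was 0.052, against -0.010 over all genes. Of the 13, 7 lay above 0 and 6 below, beside 48.4% of all genes above 0. The 95% intervals of 11 IDs lay between -1 and 1, that is, within a doubling or its reverse.

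**Figure D1:**
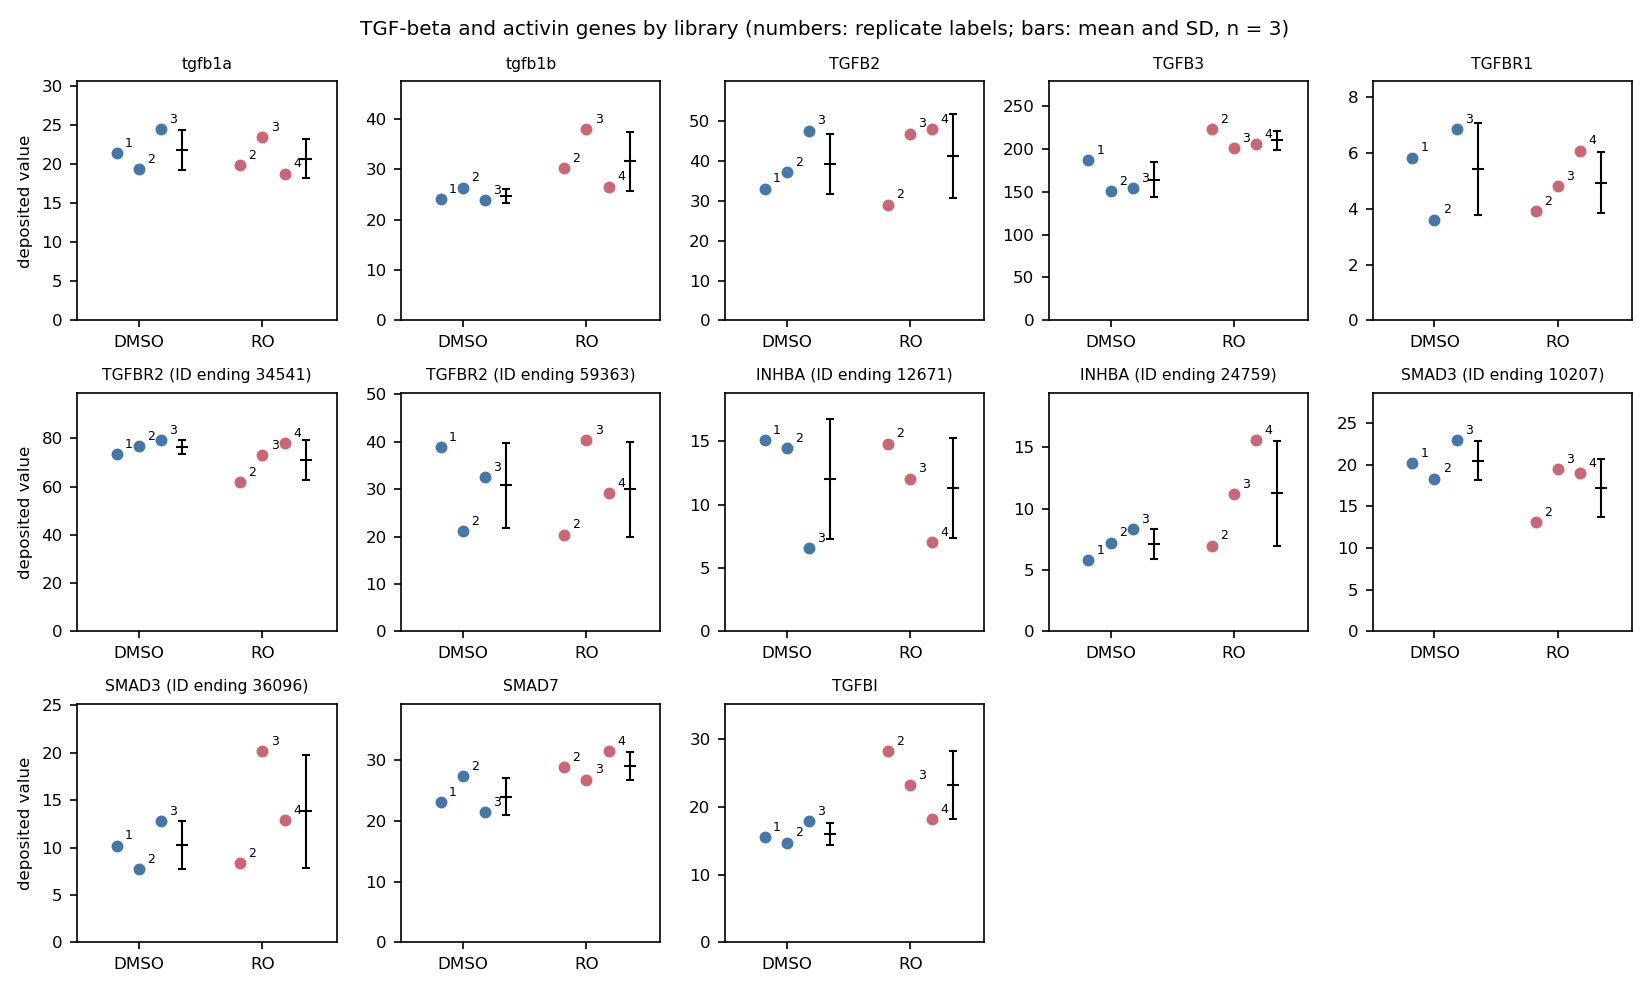
Deposited value of each of the 13 IDs (vertical axes from 0, reads scaled by a factor per library, near CPM) in the 3 DMSO and 3 RO libraries, with the replicate number beside each point and mean and SD as bars. The RO libraries of TGFB3 (200.4 to 223), tgfb1b and TGFBI lie above all DMSO libraries, and the groups of the other 10 IDs overlap.

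The ligand gene TGFB3 (ENSDARG00000019367) encodes the TGF-beta isoform known in mammals for palate development. Its deposited values, which are reads scaled by a factor per library and lie near CPM, were 187, 150.5 and 154 in DMSO replicates 1, 2 and 3, and 223, 200.4 and 206 in RO replicates 2, 3 and 4. The lowest RO library thus lay above the highest DMSO library, DMSO replicate 1. The means were 164 ± 20.1 in DMSO and 209.5 ± 11.6 in RO (SD, n = 3 here and below). The log2 difference, RO minus DMSO, was 0.36 ± 0.12 (SE), with a 95% interval of 0.10 to 0.62 and an adjusted p of 0.201. Between 518 and 915 reads stand behind each value, the most of any of the 13.

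The paralogs tgfb1a (ENSDARG00000041502) and tgfb1b (ENSDARG00000034895) encode TGF-beta 1, the isoform that platelets and macrophages are known to carry in mammals. For tgfb1b the values were 24.1, 26.3 and 23.8 in DMSO and 30.2, 37.9 and 26.5 in RO. The groups of tgfb1b did not overlap, but RO replicate 4 stood only just above DMSO replicate 2, and RO replicate 3 carried the highest value. Its log2 difference was 0.33 (95% interval -0.018 to 0.68, adjusted p = 0.403), and 0.19 without RO replicate 3. For tgfb1a the values were 21.4, 19.4 and 24.4 in DMSO and 19.8, 23.4 and 18.7 in RO, with wide overlap. The log2 difference of tgfb1a was -0.070 (95% interval -0.42 to 0.28, adjusted p = 0.902), and its sign turned without DMSO replicate 3. Whether the paralogs differ in their response was not tested.

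TGFB2 (ENSDARG00000027087) is an isoform known in mammals for its role in heart valve development. It stood at 33.1, 37.2 and 47.6 in DMSO and at 29.0, 46.9 and 47.9 in RO. RO replicate 2 was the lowest of all 6 libraries and the other RO libraries were level with DMSO replicate 3. The log2 difference was 0.052 (95% interval -0.40 to 0.50, adjusted p = 0.944), and its sign turned without DMSO replicate 1, RO replicate 3 or RO replicate 4.

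INHBA, the inhibin beta A chain that forms activin A, has 2 IDs. ENSDARG00000024759 stood at 5.83, 7.23 and 8.34 in DMSO and at 6.98, 11.2 and 15.6 in RO, so RO replicates 3 and 4 lay above all DMSO libraries and RO replicate 2 among them. Its log2 difference of 0.57 was the farthest from 0 of the 13, with an interval from -0.052 to 1.18 (adjusted p = 0.425). Leaving out RO replicate 4 gave 0.31, and leaving out RO replicate 2 gave 0.86. ENSDARG00000012671 stood at 15.1, 14.5 and 6.55 in DMSO and at 14.8, 12.04 and 7.06 in RO. The low libraries of this ID were DMSO replicate 3 and RO replicate 4, 1 in each group, and its log2 difference was -0.059 (95% interval -0.80 to 0.68, adjusted p = 0.963), a sign that turned without DMSO replicate 1, DMSO replicate 2 or RO replicate 4. Within each group the order of the libraries was reversed between these IDs: the library lowest in 1 was highest in the other. Both rest on few reads, 22 to 62 and 24 to 64 per library.

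Summed over both IDs, a step added after the values were seen, INHBA came to 20.9, 21.7 and 14.9 in DMSO and 21.8, 23.2 and 22.6 in RO. The RO sums were then close together, with a coefficient of variation of 3.19% where the single IDs had 34.7% and 38.2%. The DMSO sums were not, with 19.4% where the single IDs had 39.5% and 17.6%, and DMSO replicate 3 stood below all others. Counting error alone gives 14.7% and 16.5% for the single IDs, so little weight can rest on the closeness of 3 RO sums. The log2 difference of the sum was 0.25 (95% interval -0.13 to 0.63, adjusted p = 0.600). Reads of similar paralogs can be divided between IDs in such values. Its part in the reversed order was not tested.

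**Figure D2:**
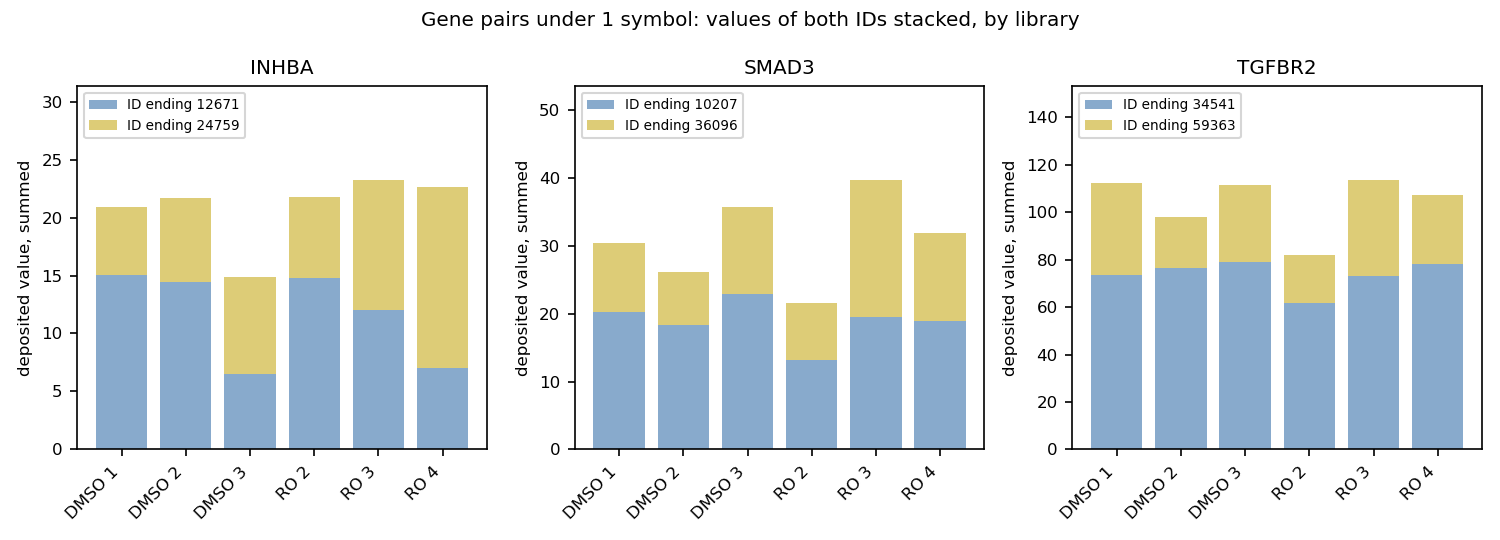
Deposited values of both IDs of INHBA, SMAD3 and TGFBR2, stacked per library (vertical axes from 0). The parts of INHBA trade places between libraries, with RO sums between 21.8 and 23.2 and DMSO sums between 14.9 and 21.7. RO replicate 2 has the lowest sums of SMAD3 (21.5) and TGFBR2 (82.1).

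Of the receptors, TGFBR2, the type II receptor that binds TGF-beta, has 2 IDs. ENSDARG00000034541 stood at 73.4, 76.7 and 79.2 in DMSO and at 61.7, 73.1 and 78.1 in RO. The DMSO libraries were close together and RO replicate 2 lay below the other 5. The log2 difference was -0.11 with an interval from -0.38 to 0.16 (adjusted p = 0.762), and -0.015 without RO replicate 2. ENSDARG00000059363 stood at 38.9, 21.2 and 32.5 in DMSO and at 20.4, 40.3 and 29.2 in RO, so both groups spanned the same range. Its log2 difference was -0.051 (95% interval -0.62 to 0.52, adjusted p = 0.959), and its sign turned without DMSO replicate 1, DMSO replicate 3 or RO replicate 2. The sum of both IDs came to 112, 97.8 and 112 in DMSO and to 82.1, 113 and 107 in RO, a log2 difference of -0.098 (adjusted p = 0.821).

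The type I receptor gene TGFBR1 (ENSDARG00000042259) had the fewest reads of the 13 IDs, 14 to 25 per library. Its values were 5.83, 3.61 and 6.85 in DMSO and 3.91, 4.82 and 6.08 in RO, all RO libraries falling inside the DMSO range. The log2 difference was -0.10 (95% interval -0.75 to 0.55, adjusted p = 0.921), and its sign turned without DMSO replicate 3 or RO replicate 2. Counting error alone gives a coefficient of variation of 22.2% at this depth, beside 30.5% seen in DMSO and 22.1% in RO.

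SMAD3, the receptor-activated transcription factor, has 2 IDs. ENSDARG00000010207 stood at 20.2, 18.3 and 22.9 in DMSO and at 13.1, 19.5 and 19.0 in RO, with RO replicate 2 the lowest library. Its log2 difference of -0.26 was the lowest of the 13 (95% interval -0.67 to 0.15, adjusted p = 0.614), and -0.082 without RO replicate 2. ENSDARG00000036096 stood at 10.2, 7.74 and 12.8 in DMSO and at 8.38, 20.1 and 12.9 in RO. The value of RO replicate 3 set it apart, and without that library the log2 difference of 0.35 (95% interval -0.30 to 1.01, adjusted p = 0.668) fell to 0.048. The summed SMAD3 values gave a log2 difference of -0.019 (95% interval -0.49 to 0.45), which turned positive without DMSO replicate 3 or RO replicate 2.

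The feedback inhibitor gene SMAD7 (ENSDARG00000016858) stood at 23.1, 27.4 and 21.4 in DMSO and at 28.8, 26.7 and 31.4 in RO. Only DMSO replicate 2 and RO replicate 3 crossed. The means were 24.0 ± 3.06 and 29.0 ± 2.34. The log2 difference was 0.27 (95% interval -0.055 to 0.60, adjusted p = 0.483), and it lay above 0 under all 19 alternatives.

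TGFBI (ENSDARG00000071586), a secreted matrix protein gene named for its induction by TGF-beta, stood at 15.6, 14.7 and 17.9 in DMSO and at 28.2, 23.2 and 18.3 in RO. The groups did not overlap, but RO replicate 4 was only just above DMSO replicate 3. The means were 16.0 ± 1.63 and 23.2 ± 4.98, on 57 to 106 reads per library. The log2 difference was 0.50 ± 0.18 (SE), with an interval from 0.098 to 0.91 (adjusted p = 0.262). Over the left-out libraries it ran from 0.35 without RO replicate 2 to 0.66 without RO replicate 4, with adjusted p from 0.142 to 0.513.

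**Figure D3:**
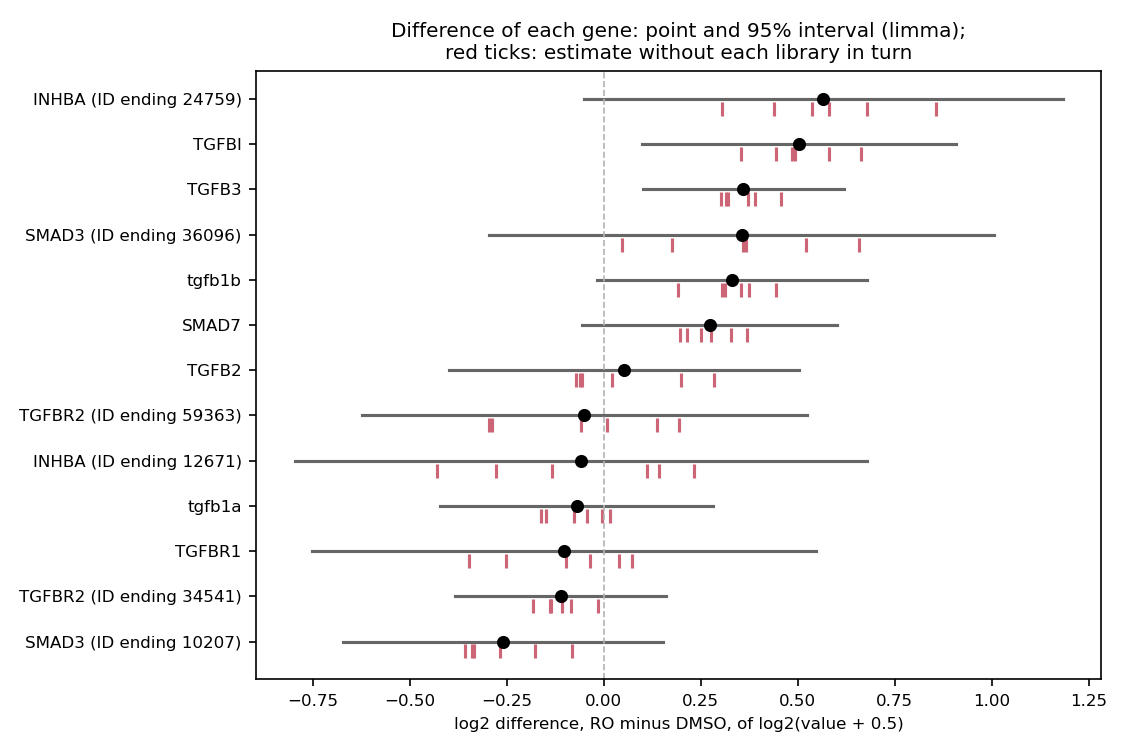
Difference of each ID on the log2 scale, RO minus DMSO (horizontal axis), as a point with its 95% limma interval, and as red ticks the estimates with each library left out in turn. The intervals of TGFB3 and TGFBI lie above 0 before adjustment, and those of the other 11 IDs include 0.

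Bulk values cannot tell fewer cells of a type from less RNA per cell, so the levels of cell type markers are given beside these genes. The summed level of 4 thrombocyte markers was 136 to 169 in DMSO and 181 to 307 in RO. The summed level of 6 macrophage and myeloid markers was 321 to 427 in DMSO and 447 to 493 in RO. These were 6 of 11 listed symbols, and mpeg1.1, mpeg1.2, csf1ra, csf1rb and mpx were not matched. In both lists every marker had a log2 difference above 0, none passed the threshold and none was at 0. Among the macrophage and myeloid markers only CORO1A (0.21) had groups that did not overlap, and spi1a had a log2 difference of 0.012. Among the RO libraries TGFBI had replicate 2 above 3 above 4, while TGFB3 had 2 above 4 above 3 and tgfb1b was highest in replicate 3. The order of TGFBI was also that of the thrombocyte, macrophage and myeloid, and smooth muscle sums. It was equally that of the epicardial and fibroblast sum, which was lower in RO. The cardiomyocyte and the endothelial and endocardial sums ran in the opposite order. In the endothelial and endocardial list only vwf, its highest marker, had that order (288, 364 and 465 in RO replicates 2, 3 and 4). This comparison of orders was not planned and rests on 3 libraries, and a link was not tested. The summed level of 9 epicardial and fibroblast markers was 4064 to 4754 in DMSO and 2732 to 3946 in RO. Most of it was collagen, from col1a1a and COL1A2, which are also among the transcriptional targets given below. Of the 9 markers 3 had log2 differences above 0, POSTN (0.54), ALDH1A2 (0.21) and DCN (0.035). The groups of ALDH1A2 did not overlap, at 403 to 474 in DMSO and 493 to 563 in RO, on 1561 to 2258 reads per library. Markers other than collagen also lay below 0: wt1b (-0.84, adjusted p = 0.0723 in limma) and PDGFRA (-0.59), both without overlap, TBX18 (-0.33) and TCF21 (-0.25). The reads per library were 37 to 72 for wt1b and 19 to 47 for PDGFRA. The 6 endothelial and endocardial markers came to 792 to 962 in DMSO and 778 to 963 in RO. Of these 6, 2 had log2 differences above 0, and TIE1 was lower in RO without overlap (-0.28, adjusted p = 0.331 in limma). The 7 cardiomyocyte markers, which define the tissue, came to 29091 to 34779 in DMSO and 27755 to 30974 in RO. Of the cardiomyocyte markers 1 passed, MYH6 (ENSDARG00000079564), a myosin heavy chain gene (adjusted p = 0.0454). Its means were 674 ± 93.3 in the DMSO libraries and 1074 ± 116 in the RO libraries. The groups of the other myh6 ID (ENSDARG00000090637) overlapped (log2 difference 0.63, adjusted p = 0.887), and nppa had 0.30. MYL7, TNNT2, cmlc1 and TNNI1 lay below 0, at -0.26, -0.21, -0.16 and -0.11. Of the smooth muscle markers 1 passed, the TAGLN ID described with the targets, and no marker passed in the other lists. The part of any of these cell types in the values of the TGF-beta and activin genes was not tested. The remaining marker sums overlapped between DMSO and RO. They were 4 smooth muscle markers (397 to 492 and 467 to 592) and 3 erythrocyte markers (670 to 1384 and 616 to 1518). Of the skeletal muscle list only ckma was matched, 1 of 6 symbols (2202 to 3235 and 2289 to 2450). Of the liver list only tfa was matched, 1 of 5 symbols (91.1 to 174 and 88.04 to 167). A single gene does not show that skeletal muscle or liver was present in the apex.

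Beyond these genes, 76 further IDs of the pathway were measured, in lists chosen with earlier results of these data known. Of them 1 rose and 1 fell, both in the list of transcriptional targets, where 0.647% of all genes rose and 0.387% fell. At an unadjusted p below 0.05 there were 19 of the 76, or 25%, beside 13.4% of all genes. The groups did not overlap in 6 that were higher in RO (7.89%, beside 9.32% of all genes) and in 13 that were lower (17.1%, beside 9.35%).

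Among 29 target IDs, 22 had log2 differences below 0, beside 7332 of all 14211 genes. The median of the targets was -0.25, against -0.010 over all genes. KLF11, TAGLN, TIMP2 and FN1 each count with 2 IDs. KLF11 (ENSDARG00000013794), a Krüppel-like factor gene induced early by TGF-beta in mammals, fell from 141, 141 and 113 in DMSO to 34.6, 48.8 and 53.8 in RO (log2 difference -1.53, adjusted p = 0.00284), a call that ended without the mean-variance trend of limma (adjusted p = 0.0826). TAGLN (ENSDARG00000033466), an actin-binding protein gene of smooth muscle, rose from 218, 215 and 238 to 364, 323 and 298 (log2 difference 0.55, adjusted p = 0.0491). The call of TAGLN sat at the threshold: it ended whichever of the 6 libraries was left out (adjusted p from 0.0532 to 0.160), in edgeR (0.0524), with a pseudocount of 0.1 (0.0529), with quantile normalization (0.0668) and without the trend (0.216). The other TAGLN ID (ENSDARG00000045408) had a log2 difference of -0.38 (adjusted p = 0.438), so the 2 IDs had opposite signs.

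The other target IDs named here were chosen after their values were seen, and none passed in limma with all libraries. Their groups did not overlap, except where overlap is stated. The lysyl oxidase family gene loxl2a (ENSDARG00000044010) stood at 25.8, 15.7 and 22.6 in DMSO and at 35.5, 65.3 and 31.6 in RO (adjusted p = 0.118).

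Lower in RO without overlap were 9 of the 29 target IDs, KLF11 (ENSDARG00000013794) among them, beside 9.35% of all genes. Higher in RO without overlap were 3 of the 29, beside 9.32% of all genes. The groups of other matrix genes of the list overlapped: both FN1 IDs (log2 differences -0.082 and -0.077), TNC (-0.44), LOXL2 (-0.25) and POSTN (0.54). COL1A2 (ENSDARG00000020007), a chain of type I collagen, stood at 1512, 1409 and 1692 in DMSO and at 1235, 1028 and 844 in RO, a log2 difference of -0.58 (adjusted p = 0.108). The other type I collagen IDs, col1a1a and COL1A1, had log2 differences of -0.57 and -0.55 (adjusted p = 0.164 and 0.169), and COL5A1 had -0.45 (adjusted p = 0.253). SPARC, a collagen-binding matrix protein gene, had a log2 difference of -0.48 (adjusted p = 0.113), and passed only without RO replicate 2 among the left-out libraries (-0.59, adjusted p = 0.0496). The collagen cross-linking gene LOX had -0.37, the transcription factor gene zeb2a -0.55 and the second KLF11 ID (ENSDARG00000030844) -0.72, with adjusted p of 0.470, 0.0668 and 0.136. DESeq2 called COL1A2, col1a1a, COL1A1, SPARC, zeb2a and loxl2a, with adjusted p from 0.00955 to 0.0463.

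Of 6 other receptor IDs, none passed and 4 lay below 0, beside 7332 of all 14211 genes. The activin type I receptor gene ACVR1B (ENSDARG00000018968) stood at 109, 105 and 100.3 in DMSO and at 92.4, 73.8 and 82.3 in RO, without overlap (log2 difference -0.34, adjusted p = 0.239). The endothelial type I receptor gene acvrl1 stood at 63.2, 51.6 and 55.4 in DMSO and at 51.1, 49.5 and 49.6 in RO, so its groups lay side by side (log2 difference -0.17, adjusted p = 0.607). The 1 other ligand measured, INHBB, the inhibin beta B chain, had a log2 difference of 0.022 (adjusted p = 0.978).

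None of 7 other Smad IDs passed. SMAD1 and SMAD5, which act mainly in the BMP branch, had log2 differences of -0.27 and -0.0049 (adjusted p = 0.485 and 0.990). The BMP branch gene smad9 (ENSDARG00000021938), singled out because its groups did not overlap, stood at 23.6, 30.2 and 19.9 in DMSO and at 33.2, 31.3 and 32.9 in RO (log2 difference 0.41, adjusted p = 0.299).

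None of 19 IDs for negative feedback and extracellular antagonists passed, with a median log2 difference of -0.036. FSTL1 (ENSDARG00000039576), a secreted follistatin-like protein gene, and DCN, a proteoglycan that binds TGF-beta, had log2 differences of -0.18 and 0.035 (adjusted p = 0.622 and 0.9504). FST, the activin antagonist follistatin, was the 1 ID of this list without overlap, named after its values were seen. It stood at 3.65, 3.61 and 4.76 in DMSO and at 3.07, 1.095 and 2.68 in RO (log2 difference -0.77, adjusted p = 0.411). These values rest on only 5 to 16 reads per library.

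None of 14 IDs for latency, storage and activation passed, and their median was 0.013. THBS1 (ENSDARG00000010785), a thrombospondin gene that can activate latent TGF-beta and is also on the thrombocyte list, stood at 85.6, 92.9 and 107 in DMSO and at 159.8, 154 and 92.5 in RO. RO replicate 4 fell among the DMSO libraries, and without it THBS1 passed, with a log2 difference of 0.72 (adjusted p = 0.0409) against 0.47 with all libraries (adjusted p = 0.311). The matrix protease gene MMP2 had a log2 difference of -0.23 without overlap (adjusted p = 0.455). Named after their values were seen, the protease gene MMP9 and lrrc32, which anchors latent TGF-beta at the cell surface in mammals, were higher in RO without overlap. MMP9 stood at 12.6, 10.8 and 11.3 in DMSO and at 32.1, 16.2 and 17.5 in RO (log2 difference 0.83, adjusted p = 0.152). The values of lrrc32 were 16.8, 15.5 and 18.8 in DMSO and 19.8, 34.4 and 21.7 in RO (log2 difference 0.52, adjusted p = 0.299).

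**Figure D4:**
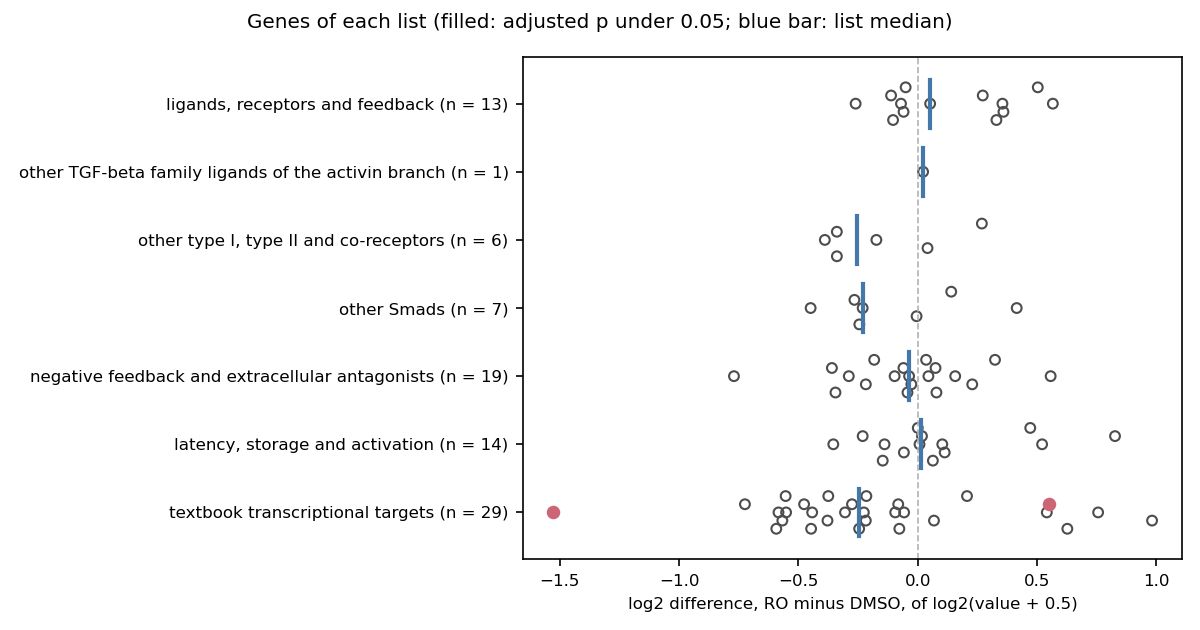
Log2 difference, RO minus DMSO (horizontal axis), of the 13 IDs and of the 76 further pathway IDs by list, with filled points for an adjusted p under 0.05 and a blue bar at each list's median. The filled points are KLF11 at -1.53 and TAGLN at 0.55, and the medians run from -0.26 (other receptors) to 0.052.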

How the data were processed

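RNA libraries from 6 pools of 3 hearts were analysed, 3 per group. The authors deposited 1 table of a scaled signal per gene. The submitters' processing notes list the Zv9 build and, in roles not given, RSEM 1.2.3, Bowtie2 2.0.6, edgeR, cutadapt 1.6.1 and CASAVA 1.8. No source used here gives the annotation release or strand use, and overlapping or antisense genes were not told apart. The deposited values are whole reads divided by 1 factor per library: 100% came out whole within 0.01 read. The recovered reads number 3306018 to 4463303 per library, and 1 read was worth 0.219 to 0.298. Symbols came from a table pairing gene IDs with names, for 11589 of 14211 IDs. No transcript lengths were used, so levels are not compared between genes, and no genome was used.

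Values were tested as log2(value + 0.5) with limma 3.58.1 (trend, R 4.3.3), without covariates, because normalized values are not counts. A minimum of 1 in 3 libraries removed 0 genes. P-values were adjusted over all 14211 genes. Log2 differences are on this scale and understate the change of low genes. Printed levels are the deposited values. Alternatives were other pseudocounts, filters, scalings and limma settings, a replicate block, each library left out, and counting models on the recovered reads (DESeq2 1.42.0, edgeR 4.0.16). The procedure was tested on simulated data. No library repeated another of its own group (chi-square per degree of freedom 5.02 to 11.7). The labels do not say whether pools came from separate experiments, so p-values measure only the spread between these pools.

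All matched IDs of the 10 symbols are named. Of each further list the passing genes, filled up to 2 by level, are named. The genes and lists were chosen with earlier results of these data known. Not every target in the counts is reported here by name.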

Additional observations from a re-analysis of the deposited data

How the results depend on the processing

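No alternative made any of the 13 IDs pass, in 19 settings. Among these the fit without a filter repeated the main fit, because the minimum removed 0 genes. The TMM scaling, with factors of 0.9998 to 1.0003, could change little. The lowest adjusted p was 0.0707, for TGFB3 with the replicate block, whose differences rest only on the replicate numbers that both groups share. Differences of TGFB3, TGFBI, tgfb1b, SMAD7, TGFBR2 (ENSDARG00000034541), both SMAD3 IDs and INHBA (ENSDARG00000024759) kept their sign in every setting, and INHBA (ENSDARG00000024759) came to 0.18 with the replicate block. With array weights the log2 difference of TGFBR2 (ENSDARG00000059363) turned to 0.084, INHBB to -0.081, SMAD5 to 0.019 and DCN to -0.054, and quantile normalization turned DCN to -0.016. With single libraries left out, differences ran from -0.072 to 0.28 for TGFB2, -0.30 to 0.19 for TGFBR2 (ENSDARG00000059363), -0.43 to 0.23 for INHBA (ENSDARG00000012671), -0.16 to 0.015 for tgfb1a and -0.35 to 0.072 for TGFBR1. Likewise INHBB ran from -0.20 to 0.17, SMAD5 from -0.073 to 0.045, DCN from -0.085 to 0.18, the SMAD3 sum from -0.21 to 0.22 and the TGFBR2 sum from -0.19 to 0.044. The count of all genes past the threshold was 147, and 1 without the mean-variance trend, 240 in DESeq2 and 22 to 105 with single libraries left out. The further pathway genes past the threshold numbered 2, and 0 without the trend, 1 with a pseudocount of 0.1, with quantile normalization and in edgeR, 9 in DESeq2 and 1 to 4 with single libraries left out.

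The DMSO and RO libraries share only the replicate numbers 2 and 3, and no label says that a number marks a shared batch. Deviations from the group means correlated at 0.171 for number 2 and 0.0904 for number 3. Pairs of unlike numbers ran from -0.158 to 0.0927, the highest being DMSO replicate 3 with RO replicate 4. In the replicate block DMSO replicate 1 and RO replicate 4 share their number with no other library. Its differences thus rest on replicates 2 and 3 of each group alone. With this block, 405 genes and 7 further pathway genes passed. TGFB2 (-0.19), TGFBR2 (ENSDARG00000059363, 0.13), INHBA (ENSDARG00000012671, 0.43) and DCN (-0.052) changed sign. The causes were not tested. Few reads limit TGFBR1 (14 to 25 per library), both INHBA IDs and, of the further pathway genes named, FST (5 to 16).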
